A study of Homo sapiens with 31 samples.

Results

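The genes described here were 10 components of the tight junction, CLDN1, CLDN3, CLDN4, CLDN6, CLDN7, CLDN11, OCLN, F11R, TJP1 and TJP3, taken by symbol from a table of 19221 genes measured by mRNA sequencing. The study asked which genes differ between an olaparib-resistant strain and its parent line, and after knockdown of C/EBPβ, a transcription factor encoded by CEBPB. It sequenced 31 libraries of human cancer cell lines in 4 groups. A2780 (n = 8) was the untreated ovarian carcinoma line, and A2780 OlaR (n = 8) was labelled as a strain of it selected under rising exposure to olaparib, an inhibitor of PARP. C13* is a line the study uses as ovarian carcinoma. Of its groups, C13* shCEBPB (n = 8) carried a lentiviral short hairpin RNA against CEBPB. C13* shCON (n = 7) was labelled as the state before knockdown. The name shCON is that of a control hairpin, and the study uses shCON cells as its stably transfected control. Replicates were called biological in the study's methods, and each group was labelled as 1 strain of 1 line, so p-values measure the spread between libraries of that strain.

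Tight junctions seal the space between neighbouring epithelial cells near their apical side and limit what passes between cells. Claudins are the membrane proteins that form the strands of the seal, each with its own permeability, and tissues differ in the mixture of claudins they use. Occludin and the junctional adhesion molecules also span the membrane, while the zonula occludens proteins lie beneath it and tie the strands to actin. Carcinomas of the ovary are known for high CLDN3 and CLDN4, and loss of claudins and occludin is a usual part of epithelial-mesenchymal transition.

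The libraries labelled A2780 OlaR resembled C13* shCON far more than A2780, and every direction given below for A2780 OlaR against A2780 rests on those labels. Between A2780 and A2780 OlaR, 154 genes stood at 10 FPKM or more (fragments scaled by gene length and library size) in every library of 1 group and at 0.1 FPKM or less in every library of the other. Between A2780 OlaR and C13* shCON there were 0 such genes, and between C13* shCON and C13* shCEBPB there were 111. Between A2780 and C13* shCON, which are labelled as different lines, there were 115. Summed over 6 epithelial markers, the level was 85.1 to 93.4 FPKM in the A2780 libraries, 2537 to 3055 in A2780 OlaR, 2320 to 2567 in C13* shCON and 1776 to 2149 in C13* shCEBPB. These markers went opposite ways in C13* shCEBPB, where KRT19, EPCAM and CDH1 averaged 0.0306, 0.567 and 0.655 FPKM (1470, 111 and 82.9 in C13* shCON), each under 1 FPKM in every library, while KRT7, KRT8 and KRT18 averaged 583, 882 and 535 (8.02, 459 and 320 in C13* shCON). The sum of 6 squamous or basal markers was 0.416 to 1.87 FPKM in A2780, 2570 to 3370 in A2780 OlaR, 2542 to 3089 in C13* shCON and 85.2 to 172 in C13* shCEBPB. What was left in C13* shCEBPB was SFN (mean 129 FPKM), the other 5 (KRT5, KRT6A, KRT14, TP63 and DSG3) being under 1 FPKM in every library. The sum of 5 mesenchymal markers was 897 to 942, 31.1 to 34.0, 39.6 to 44.4 and 351 to 380 FPKM in the same order. VIM made up most of it in A2780 and C13* shCEBPB (means of 809 and 342 FPKM, against 0.160 in A2780 OlaR and 9.82 in C13* shCON), while CDH2 was at 17.3 FPKM in C13* shCON and 7.56 in C13* shCEBPB, and FN1 at 0.524 FPKM in A2780 and 6.98 to 7.93 in the other groups. Of 5 ovarian or Müllerian markers, 5 were under 1 FPKM in every A2780 library, and no group had more than 1 of them at 1 FPKM or more in every library, although all lines are labelled as ovarian adenocarcinoma. For A2780 OlaR, a selected strain and a different cell population cannot be told apart from these libraries. The same holds for a knockdown and a different cell population in C13* shCEBPB against C13* shCON. The part of these marker levels in the results below was not tested. The replicate 1 library of C13* shCON names A2780 as its cell line in 1 label field and C13* in its title, and it was kept with its title; without it the same 8 of the genes below were called in C13* shCEBPB against C13* shCON. CEBPB itself averaged 85.8 ± 9.93 FPKM (SD, n = 7) in C13* shCON and 47.1 ± 9.05 (n = 8) in C13* shCEBPB, without overlap of the libraries. In A2780 it averaged 99.7 ± 7.63 FPKM and in A2780 OlaR 112 ± 11.6 (n = 8 each), with overlapping libraries (log2 fold change 0.16, adjusted p = 0.0202 in limma).

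Of the 10 genes, 4 have another claudin gene close by on the same chromosome. CLDN3 (chr7:73768997-73770270 of hg38, minus strand, a single exon) and CLDN4 (chr7:73799542-73832690, plus strand) were separated by 29.3 kb with 0 coding genes between them. This distance is between their outermost annotated bounds, and the CLDN4 promoter searched below lies further away, at chr7:73830746-73831045. Both genes encode sealing claudins that also bind the enterotoxin of Clostridium perfringens. CLDN1 (chr3:190305707-190322446, minus strand, 4 exons), the claudin that the skin barrier requires, lay head to head with CLDN16, which serves magnesium reabsorption in the kidney. CLDN6 (chr16:3014712-3020071, minus strand), a claudin of embryonic epithelia, lay 0.2 kb from CLDN9. The other claudins were CLDN7 (chr17:7259903-7263983, minus strand, 4 exons), which also sits on the lateral membrane with EpCAM, and CLDN11 (chr3:170418868-170454733, plus strand), known from myelin and Sertoli cells. Occludin is encoded by OCLN (chr5:69492292-69558104, plus strand, 9 exons) and the junctional adhesion molecule JAM-A by F11R (chr1:160995211-161021343, minus strand, 10 exons). The scaffold proteins ZO-1 and ZO-3 are encoded by TJP1 (chr15:29699367-29968915, minus strand, 28 exons) and TJP3 (chr19:3708362-3750813, plus strand, 21 exons). OCLN has an annotated pseudogene copy on its chromosome, and F11R shares 1853 exonic bases, CLDN11 683 and CLDN7 269 with a second gene annotated on their own strand, so their levels are uncertain to the extent that reads were split or left out in counting.

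The promoters of these genes held different letters. RefSeq promoters (250 bases before to 50 bases after a start, GRCh38.p14) matched 9 of the 10 genes, with 16 promoters in all. The first letters searched, on both strands, were CACCTG (the E-box bound by the ZEB and SNAI families, read CAGGTG on the other strand). The others were TTGCNNAA (C/EBP), AACCNGTT (grainyhead-like) and TGANTCA, a looser form of the AP-1 site TGA(C/G)TCA. Of 35116 promoters in the table, 20.6% held CACCTG, 10.5% TTGCNNAA, 1.73% AACCNGTT and 7.71% TGANTCA. A promoter of CLDN7 held CACCTG 5 times, against 0.094% of all promoters with 5 or more. The CLDN4 promoter held TGANTCA 2 times, against 0.515% of all promoters with 2 or more. These matches were TGATTCA and TGACTCA, and only the latter has the letters of the AP-1 site. CACCTG was also in promoters of CLDN3, CLDN6, OCLN, TJP1 and TJP3, while TTGCNNAA and AACCNGTT were in none of the 16, which says only that these letters are absent from these windows. Not every promoter of CLDN7, TJP1 and TJP3 held CACCTG. A count of genes therefore cannot be set against the 20.6%, which is a share of promoters. Shown as examples are the stretches with the repeated letters of CLDN4, with 4 of the 5 matches of CLDN7, and with the match of OCLN nearest its start. The CLDN7 match at position 6, after the start, is not shown. All 8 genes that could be tested changed in both comparisons below, so a change does not set these 3 apart. Capitals mark the searched letters, and positions count from the start.
CLDN4, chr7:73830746-73830775, plus strand, -250 to -221: ctgggctgTGATTCAgtgtctgtctcccgg
CLDN4, chr7:73830823-73830852, plus strand, -173 to -144: gagactggatagTGACTCAgggacccgggg
CLDN7, chr17:7262635-7262664, minus strand, -186 to -157: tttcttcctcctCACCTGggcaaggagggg
CLDN7, chr17:7262596-7262625, minus strand, -147 to -118: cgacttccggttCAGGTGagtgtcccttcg
CLDN7, chr17:7262481-7262510, minus strand, -32 to -3: cctacatatactCAGGTGcgcccCACCTGt
OCLN, chr5:69492502-69492531, plus strand, -45 to -16: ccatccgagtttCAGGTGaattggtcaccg

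A further stretch is shown because 2 claudins share it. Only 94 bases separate the start of CLDN1 from the start of an annotated CLDN16 transcript on the opposite strand, whereas the canonical CLDN16 transcript starts 65.7 kb away. None of the searched letters was in this stretch, which is written here on the strand of CLDN1.
CLDN1 to CLDN16, chr3:190322447-190322540, minus strand, -94 to -1: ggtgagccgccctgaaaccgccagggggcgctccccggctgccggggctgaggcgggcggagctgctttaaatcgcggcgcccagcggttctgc

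All 8 of these genes that had enough signal to be tested were lower in C13* shCEBPB than in C13* shCON. CLDN4 and F11R stood at 10.96% and 12.9% of their C13* shCON mean FPKM, CLDN7 at 19.9% and CLDN1 at 24.1%. CLDN3 was listed at 0 in every C13* shCEBPB library, and OCLN stood at 1.43% of its C13* shCON mean. The scaffold genes TJP1 and TJP3 stood at 42.9% and 32.1%. The shares kept were thus unequal, from 0 for CLDN3 to 42.9% for TJP1. Whether the culture held fewer epithelial cells or less of these RNAs per cell was not tested.

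Differences were fitted with limma on log2(FPKM + 1) across all genes with enough signal, and a gene with a Benjamini-Hochberg adjusted p under 0.05 over all genes tested is called a differentially expressed gene. Of the 10 genes, 8 passed the filter of 1 FPKM and CLDN6 and CLDN11 did not. All 8 were called and lower, beside 84.7% of 12006 genes called in this comparison, 45.7% being lower and 38.9% higher. None of the 8 overlapped between the groups, beside 66% of all genes without overlap. A fold of at least 2 was met by 7 of the 8, beside 16.7% of all genes lower by that much. CLDN3, OCLN and TJP3 passed the filter only through C13* shCON, so these counts describe the genes and carry no further weight. The median log2 fold change of the 8 was -2.21, beside -0.07 over all genes tested. In an exact permutation test over libraries (two-sided), each of the 8 had p = 0.000311, the smallest that 8 against 7 libraries allow.

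CLDN1 ranged over 7.59, 8.45 and 8.91 FPKM (lowest, median and highest library) in C13* shCON and over 1.43, 1.88 and 2.73 in C13* shCEBPB. Every knockdown library lay below every control library. This was a log2 fold change of -1.65 (SE 0.08, adjusted p = 2.03e-12 in limma). Within C13* shCEBPB, the libraries numbered 1 to 3 (2.34 to 2.73 FPKM) lay above those numbered 4 to 8 (1.43 to 2.03).

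CLDN3 had 4.38, 5.46 and 6.15 FPKM as its lowest, median and highest value in C13* shCON. All 8 C13* shCEBPB libraries were listed at 0, so no fold is given (adjusted p = 2.51e-18 in limma). CLDN4, its neighbour on chromosome 7, was not at 0 anywhere and ran over 94.2, 107 and 114 FPKM in C13* shCON and 6.16, 11.5 and 16.4 in C13* shCEBPB. The C13* shCON libraries of CLDN4 kept close together, whereas its C13* shCEBPB libraries were widely spread, those numbered 1 to 3 lying at 6.16 to 9.03 FPKM and those numbered 4 to 8 at 11.1 to 16.4. The log2 fold change of CLDN4 was -3.13 (SE 0.15, adjusted p = 6.72e-13 in limma).

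CLDN7 was the most abundant claudin in both groups. Its lowest, median and highest values were 105, 126 and 146 FPKM in C13* shCON and 19.9, 25.4 and 30.0 in C13* shCEBPB. The groups lay far apart, with a log2 fold change of -2.28 (SE 0.08, adjusted p = 1.24e-14 in limma).

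CLDN6 and CLDN11 were near 0 in C13* cells. CLDN6 reached at most 0.152 FPKM in C13* shCON and 0.0414 in C13* shCEBPB, where 5 of 8 libraries were listed at 0. CLDN11 was listed at 0 in all 7 C13* shCON libraries and lay between 0.0186 and 0.129 FPKM in C13* shCEBPB. Neither was tested. Markers of cells that use CLDN11 (MBP, SOX10, SOX9 and AMH) summed to 31.5 to 35.2 FPKM in C13* shCON and 10.6 to 13.6 in C13* shCEBPB. MBP went from 26.3 to 4.56 FPKM and SOX9 from 5.69 to 1.08, while AMH went from 1.93 to 7.13 and SOX10 was at or near 0 in both groups.

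OCLN, the gene of occludin, had 3.11, 3.55 and 4.18 FPKM as lowest, median and highest in C13* shCON. In C13* shCEBPB the corresponding values were 0.0161, 0.0531 and 0.0719 FPKM, so every library was close to 0. The log2 fold change was -2.13 (SE 0.05, adjusted p = 1.73e-17 in limma) with a pseudocount of 1 and -4.62 with a pseudocount of 0.1, since the pseudocount compresses the change of a gene this low.

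F11R, which encodes JAM-A, varied little within either group. It had 53.8, 54.4 and 56.7 FPKM in C13* shCON and 6.27, 7.03 and 8.05 in C13* shCEBPB (lowest, median, highest). Its log2 fold change was -2.79 (SE 0.05, adjusted p = 2.52e-19 in limma).

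The scaffold genes kept a larger share of their C13* shCON level than the other 6 genes called. TJP1 had 18.8, 20.2 and 22.6 FPKM in C13* shCON and 7.67, 8.32 and 10.7 in C13* shCEBPB, with a log2 fold change of -1.14 (SE 0.07, adjusted p = 2.62e-11 in limma). TJP3 had 1.44, 1.62 and 1.85 FPKM in C13* shCON and 0.405, 0.496 and 0.737 in C13* shCEBPB. Neither gene overlapped between the groups. The log2 fold change of TJP3 was -0.79 (SE 0.06, adjusted p = 2.54e-10 in limma), and -1.49 with a pseudocount of 0.1.

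**Figure D1:**
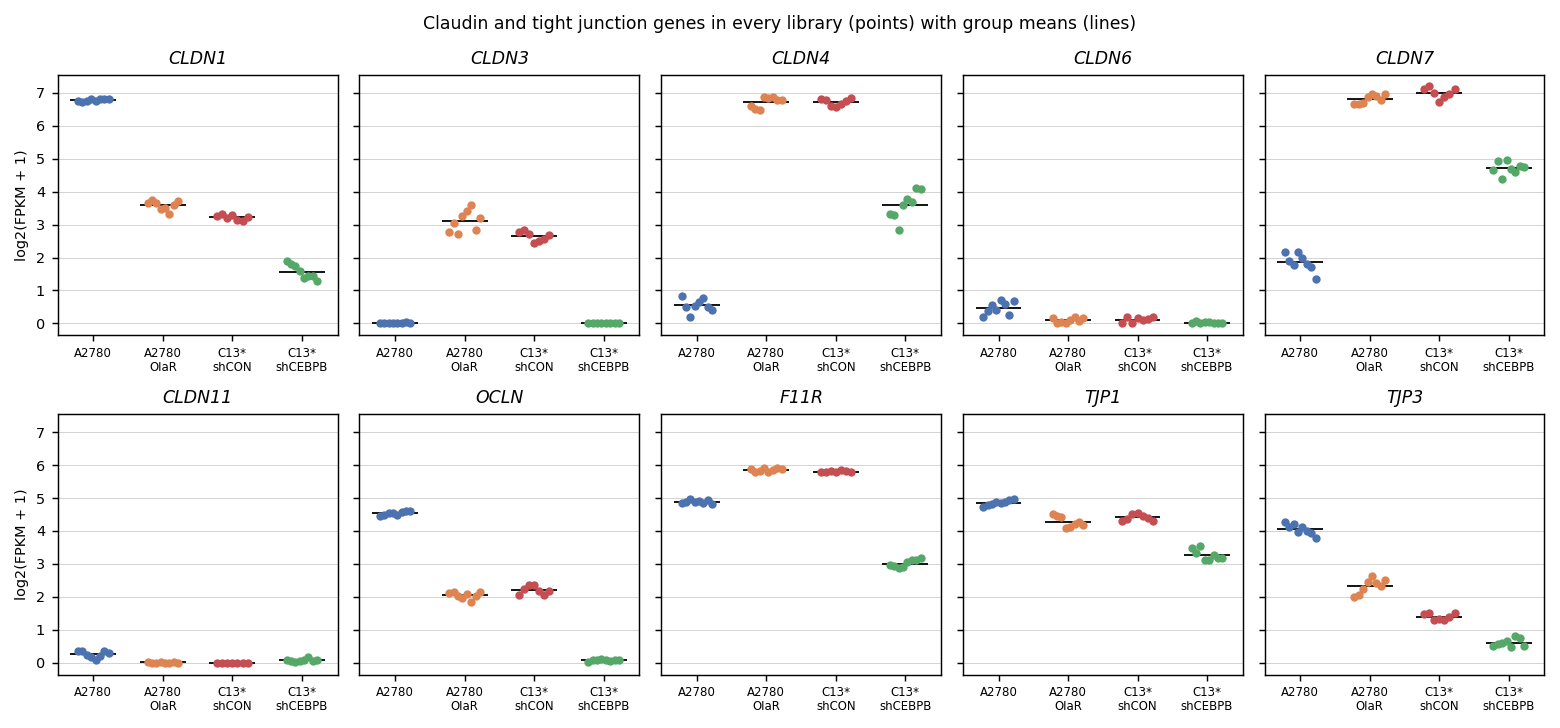
Level of the 10 genes in every library, as log2(FPKM + 1), in the 4 labelled groups (A2780, A2780 OlaR and C13* shCEBPB n = 8, C13* shCON n = 7). Each point is a library and each line the group mean; CLDN4 and CLDN7 are high in A2780 OlaR and C13* shCON, CLDN1 and OCLN are highest in A2780, and CLDN6 and CLDN11 stay under 1 FPKM in every library.

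Between the libraries labelled A2780 OlaR and those labelled A2780, the junction genes moved in opposite directions. CLDN4 was 219-fold and CLDN7 42.0-fold higher in A2780 OlaR by the ratio of mean FPKM, F11R was 1.99-fold higher, and CLDN3 was listed at 0 in 7 of 8 A2780 libraries and present in every A2780 OlaR library. In contrast, CLDN1, OCLN and TJP3 stood at 10.1%, 14.0% and 26.0% of their A2780 mean, and TJP1 at 66.2%.

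The same 8 genes passed the filter and all 8 were called, beside 89.8% of 12458 genes. Of these, 4 were higher (CLDN3, CLDN4, CLDN7, F11R) and 4 lower (CLDN1, OCLN, TJP1, TJP3), beside 40.1% of all genes higher and 49.7% lower. A fold of at least 2 was met by 3 of the higher and 3 of the lower genes, beside 15.5% and 20.1% of all genes. No gene of the 8 overlapped between the groups, beside 74.1% of all genes without overlap, and in the exact permutation test each had p = 0.000155, the smallest that 8 against 8 libraries allow. CLDN3 and CLDN4 passed the filter only through A2780 OlaR.

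CLDN1 was the dominant claudin of A2780, at 106, 109 and 112 FPKM (lowest, median, highest). In A2780 OlaR it lay at 9.02, 11.4 and 12.3 FPKM. The A2780 libraries were nearly level, and the log2 fold change was -3.20 (SE 0.05, adjusted p = 8.59e-22 in limma).

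CLDN3 had 1 A2780 library above 0, at 0.0379 FPKM, and 5.63, 7.69 and 11.1 FPKM as lowest, median and highest in A2780 OlaR (adjusted p = 1.83e-16 in limma, no fold given). CLDN4 was detected in every A2780 library but under 1 FPKM, at 0.149, 0.432 and 0.793 FPKM. In A2780 OlaR it lay at 88.2, 108 and 116 FPKM, the 3 lowest values being those of libraries 1 to 3. For CLDN4 the log2 fold change was 6.17 (SE 0.08, adjusted p = 1.75e-22 in limma). CLDN7 went from 1.53, 2.62 and 3.47 FPKM in A2780 to 100.03, 113 and 125 in A2780 OlaR. Its log2 fold change was 4.96 (SE 0.10, adjusted p = 3.95e-20 in limma), with libraries 1 to 3 again the lowest of A2780 OlaR at 100.03 to 101.7 FPKM.

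CLDN6 and CLDN11 did not reach 1 FPKM in these groups either. CLDN6 lay at 0.139 to 0.632 FPKM in A2780 and at 0 to 0.144 in A2780 OlaR, which overlapped by a narrow margin. CLDN11 lay at 0.0625 to 0.275 FPKM in A2780 and reached at most 0.0223 in A2780 OlaR, where 5 of 8 libraries were listed at 0.

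OCLN had 21.1, 22.3 and 23.6 FPKM in A2780 and 2.55, 3.18 and 3.40 in A2780 OlaR (lowest, median, highest). Its log2 fold change was -2.50 (SE 0.05, adjusted p = 1.68e-20 in limma). Among membrane protein genes it shared its sign with CLDN1 (-3.20) and differed in sign from CLDN4, CLDN7 and F11R. F11R had 27.0, 28.6 and 30.1 FPKM in A2780 and 54.9, 57.2 and 58.9 in A2780 OlaR, with a log2 fold change of 0.97 (SE 0.03, adjusted p = 8.12e-17 in limma). Among the 4 genes that were higher, F11R had the smallest SD over the A2780 OlaR libraries (0.04 on the log2 scale).

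TJP1 had 25.5, 28.0 and 30.6 FPKM in A2780 and 15.97, 17.9 and 21.8 in A2780 OlaR. Its log2 fold change was -0.57 (SE 0.06, adjusted p = 2.59e-08 in limma), and the size depended on which libraries entered, being -0.32 among libraries numbered 1 to 3 and -0.73 among those numbered 4 to 8, both called. TJP3, encoding the epithelial scaffold ZO-3, had 12.9, 15.6 and 18.3 FPKM in A2780 and 2.99, 4.19 and 5.14 in A2780 OlaR. For TJP3 the log2 fold change was -1.72 (SE 0.09, adjusted p = 2.77e-13 in limma), and no library of A2780 OlaR came near the A2780 range. Its size also depended on the libraries, being -2.10 among those numbered 1 to 3 and -1.49 among those numbered 4 to 8, both called.

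**Figure D2:**
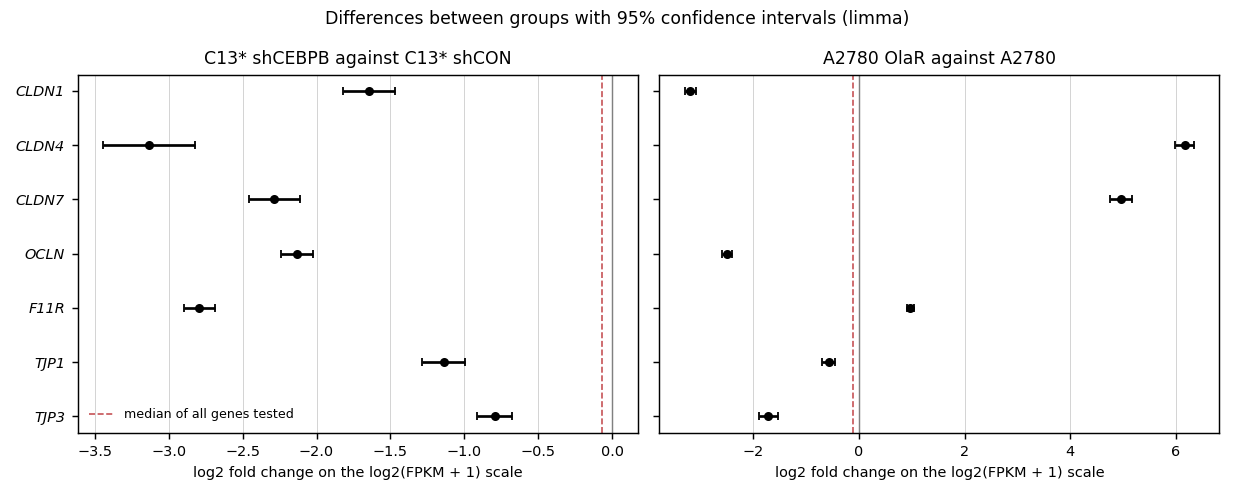
Log2 fold change with its 95% confidence interval (limma, on the log2(FPKM + 1) scale) of 7 genes in C13* shCEBPB against C13* shCON (left) and A2780 OlaR against A2780 (right). All 7 lie left of 0 on the left, and 3 lie right of 0 on the right; the dashed line is the median of all genes tested, and CLDN3 is not drawn because a group was listed at 0.

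Ordered by mean FPKM, the genes followed several patterns over the 4 groups. CLDN4 and CLDN7 had their lowest group in A2780, with C13* shCEBPB between it and the pair of A2780 OlaR and C13* shCON. CLDN1, OCLN, TJP1 and TJP3 were highest in A2780 and lowest in C13* shCEBPB, and F11R was highest in A2780 OlaR and lowest in C13* shCEBPB. These orders were set by the same means that the tests compare, so the counts carry no further weight. Between 42.2% and 91.4% of all genes were called, depending on the comparison. Of 30 pairs of neighbours in these orders, 23 could be tested, 20 were called and 3 were not. The 3 were all between A2780 OlaR and C13* shCON, where the log2 difference (A2780 OlaR minus C13* shCON) was 0.00 for CLDN4 (95% confidence interval -0.14 to 0.13, adjusted p = 0.964 in limma), 0.05 for F11R (-0.01 to 0.12, adjusted p = 0.153) and -0.13 for TJP1 (-0.27 to 0.01, adjusted p = 0.119).

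Between A2780 OlaR and C13* shCON, TJP3 had the largest fitted difference of the 8 genes tested. Of 8 genes tested, 5 were called, 3 higher and 2 lower, beside 42.2% of 11547 genes (19.3% higher and 22.9% lower), and 0 reached a fold of 2 on the log2(FPKM + 1) scale, beside 0.589% of all genes. CLDN1, CLDN3 and TJP3 were higher in A2780 OlaR, by 0.37, 0.47 and 0.93 on the log2 scale, and TJP3 stood at 2.47 times its C13* shCON mean on the FPKM scale. CLDN7 was lower by a log2 fold change of -0.19 (adjusted p = 0.039 in limma) and OCLN by -0.16 (adjusted p = 0.0427), and their libraries overlapped. These 2 lower calls were lost with no filter, with median-of-ratios scaling, with a replicate block and at an adjusted p under 0.01, each leaving 3 higher and 0 lower.

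The other pairs of groups share libraries with the comparisons above, and their values are given side by side with them only. In each, some genes passed the filter only through the group where they were high. C13* shCEBPB had lower CLDN1 (log2 fold change -5.21), OCLN (-4.47), TJP3 (-3.44), F11R (-1.88) and TJP1 (-1.58) than A2780, and higher CLDN4 (3.04) and CLDN7 (2.86). All 7 of these were called, beside 88.9% of all genes (37.4% higher and 51.5% lower), while CLDN3 was at or near 0 in both groups and was not tested. CLDN4 passed only through C13* shCEBPB, and OCLN and TJP3 only through A2780. C13* shCON against A2780 gave 8 of 8 called, 4 higher and 4 lower, beside 91.4% of all genes (41.3% higher and 50.1% lower), with CLDN3 and CLDN4 passing only through C13* shCON. A2780 OlaR against C13* shCEBPB gave 8 of 8 called and higher, beside 83.7% of all genes called and 44.7% called higher, with CLDN3, OCLN and TJP3 passing only through A2780 OlaR.

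Because FPKM are scaled by gene length, the claudins of a library can be set against each other. The annotation that gave the lengths is not known here, and the shares depend on it. The sum over 24 claudin genes was 202 ± 3.67 FPKM in A2780 (SD, n = 8), 256 ± 20.8 in A2780 OlaR (n = 8), 270 ± 20.9 in C13* shCON (n = 7) and 60.8 ± 4.83 in C13* shCEBPB (n = 8). The makeup of the sum differed between A2780 and the other groups. CLDN1 made up 54.1% of it, CLDN16 25.6% and CLDN12 10.4%, while CLDN7 made up 1.33% and CLDN4 0.237%. In A2780 OlaR the leading shares were 43.7% CLDN7 and 40.8% CLDN4, with CLDN12 at 5.33% and CLDN1 at 4.36%. C13* shCON had 47.2% CLDN7 and 38.7% CLDN4.

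C13* shCEBPB kept CLDN7 as its leading claudin, at 41.9% of the sum, with means of 27.1% for CLDN12 and 18.7% for CLDN4. CLDN12 exceeded CLDN4 in 7 of 8 libraries, widely in those numbered 1 to 3 and barely in library 8 (24.7% and 24.4%), and CLDN4 was above it in library 7 (25.0% and 23.1%). The level of CLDN12, an atypical claudin without the usual scaffold-binding end, did not differ detectably between C13* shCON and C13* shCEBPB (17.4 and 16.3 FPKM, log2 fold change -0.10, 95% confidence interval -0.24 to 0.05, adjusted p = 0.192 in limma). CLDN15 rose from 2.93 to 4.42 FPKM (log2 fold change 0.46, adjusted p = 7.68e-05) and reached 7.26% of the sum. Of the 24 claudins, 6 were at 1 FPKM or more in every library of A2780, 7 in A2780 OlaR, 7 in C13* shCON and 5 in C13* shCEBPB.

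**Figure D3:**
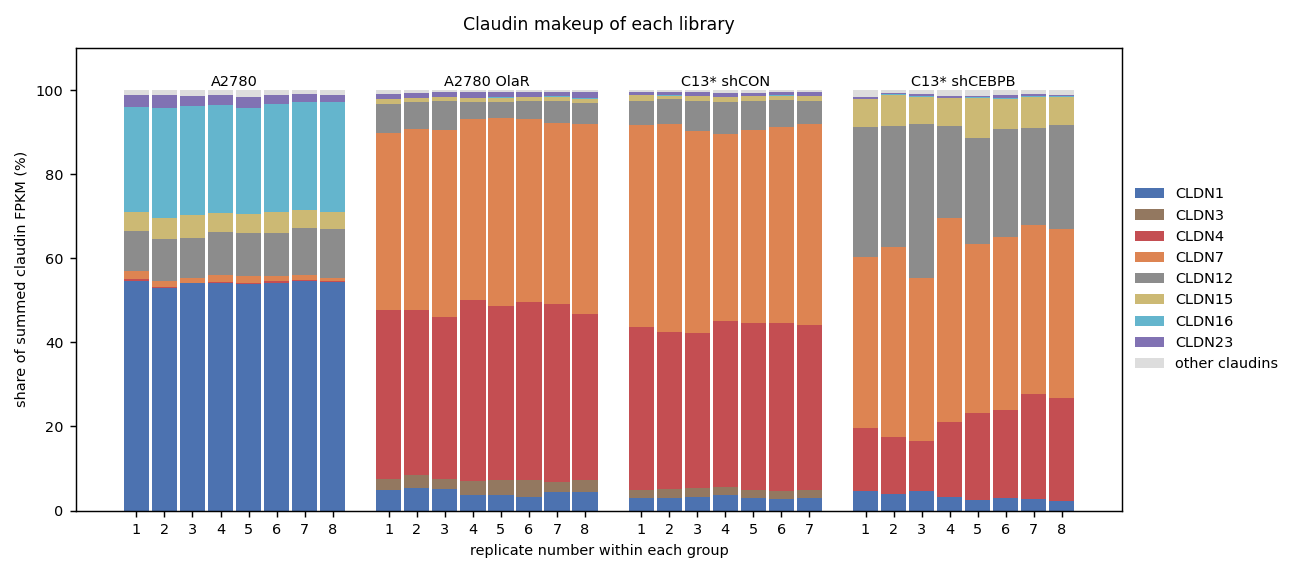
Share of each claudin in the summed FPKM of 24 claudin genes, in percent, for each of the 31 libraries, ordered by group and replicate number. CLDN1 and CLDN16 fill most of every A2780 bar, CLDN7 and CLDN4 most of every A2780 OlaR and C13* shCON bar, and CLDN12 is widest in C13* shCEBPB.

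CLDN16 was not among the 10 genes but adjoins CLDN1, so its levels are given beside it. It averaged 51.7 ± 1.56 FPKM (SD, n = 8) in A2780, 0.286 ± 0.0881 in A2780 OlaR, 0.201 ± 0.0576 (n = 7) in C13* shCON and 0.0900 ± 0.0545 in C13* shCEBPB. Like CLDN1 (109, 11.1, 8.32 and 2.01 FPKM) it was highest in A2780, but in the other groups it was under 1 FPKM in every library and was not compared between them. CLDN3 and CLDN4, the other neighbours, parted in C13* shCEBPB, where CLDN3 was listed at 0 and CLDN4 averaged 11.5 FPKM.

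The other genes of the tight junction were counted on a list of 58, which held the remaining claudins, MARVEL proteins, adhesion molecules, tricellular proteins, scaffolds, polarity proteins and regulators of the junction. In C13* shCEBPB against C13* shCON, 35 were tested and 33 were called, 12 higher and 21 lower, beside 84.7% of all genes called (38.9% higher and 45.7% lower). They had a median log2 fold change of -0.47 beside -0.07 over all genes. At a fold of at least 2, 3 were higher and 13 lower, beside 12.7% and 16.7% of all genes. Some genes, including MARVELD3 and ESAM, passed the filter only through the group where they were high. The counts therefore describe the genes and carry no further weight. The largest falls on the log2(FPKM + 1) scale were those of LSR, the protein that recruits tricellulin to tricellular contacts (134.8 to 1.35 FPKM, log2 fold change -5.90), MARVELD3, a relative of occludin (16.4 to 0.128 FPKM, -3.94), and AMOTL1, an angiomotin (32.4 to 5.17 FPKM, -2.46). By ratio of means, ILDR1 (3.34 to 0.0162 FPKM) and MARVELD2 (7.55 to 0.589 FPKM) were among genes that fell further than AMOTL1. The largest rises were those of ESAM, an adhesion molecule best known from endothelium (0.729 to 13.9 FPKM, 3.11), ARHGAP17, a regulator of the junction (6.11 to 37.4 FPKM, 2.44), and MPP5, the polarity protein PALS1 (7.90 to 32.9 FPKM, 1.93). The endothelial markers CLDN5, PECAM1 and CDH5 together summed to 0.609 to 1.22 FPKM in C13* shCON and 0.932 to 1.38 in C13* shCEBPB. CDH5 alone averaged 0.341 and 1.13 FPKM, without overlap, while CLDN5 and PECAM1 were lower in mean in C13* shCEBPB (0.0208 and 0.0184 FPKM against 0.338 and 0.212).

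By role, both MARVEL genes (MARVELD2 and MARVELD3) and both tested tricellular genes were lower by at least 2-fold in C13* shCEBPB, beside 16.7% of all genes. MARVELD2, MARVELD3 and the tricellular gene ILDR1 passed the filter only through C13* shCON, so their direction carries no further weight. Of 8 tested scaffold genes 6 were lower and 2 higher, and of 11 tested polarity genes 6 were lower, 4 higher and 1 not called, beside 45.7% of all genes lower and 38.9% higher.

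In A2780 OlaR against A2780, 39 genes of the list were tested and 37 called, 14 higher and 23 lower, beside 89.8% of all genes called (40.1% higher and 49.7% lower). They had a median log2 fold change of -0.53 beside -0.12. At a fold of at least 2, 7 were higher and 15 lower, beside 15.5% and 20.1% of all genes. MARVELD2, MARVELD3, CLDN16, JAM2, JAM3 and AMOT were among those that passed the filter only through the group where they were high. The counts therefore describe the genes and carry no further weight. The largest rises on the log2(FPKM + 1) scale were those of MARVELD3 (0.115 to 16.3 FPKM, log2 fold change 3.95), MARVELD2, the gene of tricellulin (0.136 to 7.94 FPKM, 2.97), and AMOTL1 (2.93 to 28.3 FPKM, 2.90). ILDR1, listed at 0 in A2780 and at 3.86 FPKM in A2780 OlaR, rose by 2.28 on that scale. The largest falls were those of CLDN16 (-5.36), JAM3, a junctional adhesion molecule (10.9 to 0.441 FPKM, -3.05), and AMOT (4.43 to 0.0262 FPKM, -2.40). All 4 tested genes of the JAM family on the list were lower by at least 2-fold, whereas F11R of the same family was higher.

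**Figure D4:**
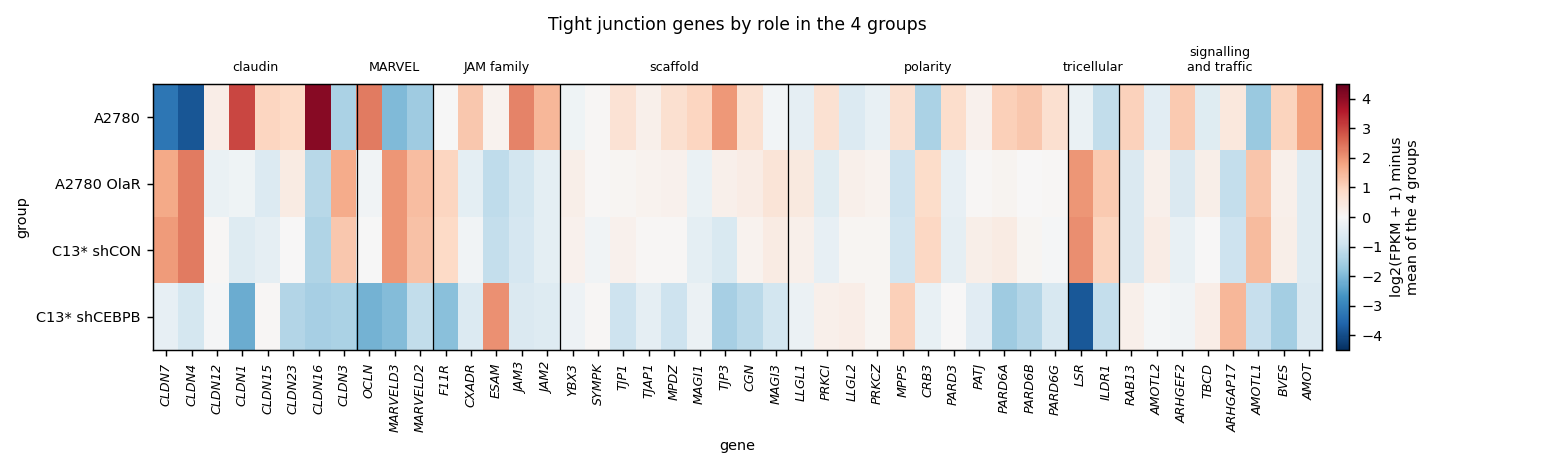
Mean log2(FPKM + 1) of each group minus the mean of the 4 group means, for 8 of the 10 genes and the tested genes of the wider list except 1, ordered by role. Red is above and blue below that mean, and the columns of CLDN4, CLDN7, MARVELD3 and LSR are red in A2780 OlaR and C13* shCON.

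Among 13 regulators of epithelial state, 13 were tested and called in C13* shCEBPB against C13* shCON, 10 lower and 3 higher, beside 84.7% of all genes called (45.7% lower and 38.9% higher). GRHL2, GRHL3 and OVOL1 were among those that passed the filter only through C13* shCON, so the count carries no further weight. The higher genes encode repressors that bind E-boxes in epithelial promoters, ZEB1 (0.507 to 6.55 FPKM, log2 fold change 2.31), SNAI1 (2.39 to 17.5 FPKM, 2.45) and ZEB2 (0.0598 to 1.15 FPKM, 1.02). SNAI2 and TWIST1, which belong to the same functional class, were lower (-1.38 and -0.89). ESRP1, an epithelial splicing regulator, fell from 45.1 to 0.00328 FPKM (log2 fold change -5.52), and GRHL2, an activator of claudin genes in epithelia, from 15.7 to 0.0131 FPKM (-4.04). OVOL2, OVOL1, GRHL3, GRHL1, ESRP2 and ELF3 were also lower, by log2 fold changes of -3.11 to -0.36.

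In A2780 OlaR against A2780, 12 of the 13 regulators were tested and 11 called, 9 higher and 2 lower, beside 89.8% of all genes called (40.1% higher and 49.7% lower). GRHL2, GRHL3 and OVOL1 were among those that passed the filter only through A2780 OlaR, so the count carries no further weight. ZEB1 (14.5 to 0.536 FPKM, log2 fold change -3.33) and TWIST1 (40.3 to 6.34 FPKM, -2.50) were lower. GRHL2 was listed at 0 in A2780 and averaged 22.2 FPKM in A2780 OlaR, and ESRP1, ESRP2, ELF3 and SNAI2 were higher by log2 fold changes of 4.49, 4.48, 3.94 and 3.20. OVOL1, OVOL2, GRHL1 and GRHL3 were higher by 0.36 to 1.86. SNAI1 had 4.93 and 5.28 FPKM (log2 fold change 0.08, 95% confidence interval -0.07 to 0.23, adjusted p = 0.294).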

How the data were processed

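The mRNA libraries of 31 cell line samples were analysed in 4 groups taken from the sample labels. As the study's methods state, reads of 150 bp were paired-end, mapped to hg38 with TopHat and counted with HTSeq, and the authors called genes with edgeR on counts. The deposited values analysed here are FPKM of each library, without read totals, so absolute depth is unknown; steps of low values in 337 genes put the deepest library at 1.42 times the shallowest. The tool, annotation and strand setting behind the FPKM are not given in the sources used here. Of 19225 entries, 4 with 2 repeated symbols were left out.

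Because the deposited table holds no counts, the fit was made with limma 3.58.1 in R 4.3.3 (eBayes with a trend, two-sided) on log2(FPKM + 1), each pair of groups fitted alone, for genes at 1 FPKM or more in a number of libraries equal to the smaller group. Fold changes on this scale understate changes of low genes. Exact permutation tests, sequence searches and plots used Python 3.11.15, scipy 1.17.1 and matplotlib 3.10.9. Positions came from GENCODE 44. On simulated data for 11379 genes of C13* shCEBPB against C13* shCON, the limma step found 200 of 200 genes changed by 2-fold. Of its calls on the simulated data, 2.91% were false. Only those 200 genes were changed in the simulation, whereas 84.7% of 12006 genes were called in the real libraries. The simulation therefore gives no false rate for the calls in the real libraries. The genes, lists and tests were chosen with earlier results of these data known. From the wider list the 3 largest rises and falls without overlap of libraries were named, all regulators were eligible, and the likeness of a gene to others was the root mean square difference of 4 group means on the log2 scale. Alternatives were another pseudocount, filter, scaling, fit, library range and threshold. The values of 1 gene of the wider list are not reported here.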

Additional observations from a re-analysis of the deposited data

Results flagged for a closer look

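Of 38 sets of libraries (a gene in a group) tested for a library far from the others, 2 stood out. Chance flags about 1 in 20 such sets if values are normally distributed, which sets with many values at 0 are not. CLDN3 was at 0.0379 FPKM in A2780 replicate 7, with the other A2780 libraries listed at 0, so any value above 0 there would have been flagged. CLDN11 was at 0.129 FPKM in C13* shCEBPB replicate 6, with the nearest library at 0.0596. Both values are far below 1 FPKM.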

How the results depend on the processing

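No call or direction of a single gene changed in 181 refits of the 8 genes in the 2 comparisons the study names. Counts of called genes stayed within 1.5 times of the reported count in 98 refits and moved further in 10. In C13* shCEBPB against C13* shCON, 5 of the genes were called, of 5 tested, with the filter at 5 FPKM. In A2780 OlaR against C13* shCON, 3 rather than 5 were called with no filter, with the filter at 5 FPKM, with median-of-ratios scaling and at an adjusted p under 0.01 (neither CLDN7 nor OCLN was called lower, except for 1 lower call with the filter at 5 FPKM), and 0 at a fold of at least 2. With a replicate block, by replicate number or by library number, 3 were called in that comparison, and without replicate 1 of C13* shCON, 4 (3 higher and 1 lower). Same-numbered libraries did not deviate together on average (mean correlation -0.138 for the C13* groups and -0.228 for the A2780 groups). Single pairs ranged from -0.488 to 0.438 and from -0.564 to 0.109, so these means do not settle whether the numbers pair the libraries. At a fold of at least 2, the wider list had 16 called genes in C13* shCEBPB against C13* shCON and 22 in A2780 OlaR against A2780. In A2780 OlaR 51.5% of 12967 genes, and in C13* shCEBPB 47.0%, did not overlap between libraries numbered 1 to 3 and 4 to 8. The share was 18.9% in A2780 and 4.86% in C13* shCON. The cause of the split was not tested. The limma and permutation p-values treat the libraries of a group as independent, which such a split puts in doubt.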

Other observations

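For the 7 genes whose group means spanned at least 2 on the log2 scale, the genes with the nearest means over the 4 groups were sought among 12967 genes, as a description over 4 points. Nearest to CLDN4 was FGFBP1, a secreted carrier of fibroblast growth factors (root mean square difference 0.141). Nearest to CLDN7 was SERPINB5, the epithelial serpin maspin (0.182), followed by CA9, a carbonic anhydrase (0.185). CLDN1 lay nearest to ID4, an inhibitor of helix-loop-helix factors (0.0962), and CLDN3 to NIPAL4 (0.0601) and the chemokine CXCL8 (0.0604). OCLN lay nearest to the histone deacetylase HDAC9 (0.0810), F11R to the sorting nexin SNX18 (0.0438) and TJP3 to the small GTPase RAB15 (0.0973).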
